A study of Mus musculus with 10 samples.

Results

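Respiratory complex I, the NADH dehydrogenase of the inner mitochondrial membrane, was followed through 43 genes in single cells of embryonic mouse back skin. The genes were chosen by symbol alone (Nduf followed by a, b, c, s or v and a number, or mt-Nd), which matched 36 nuclear and 7 mitochondrial genes out of 33243 genes listed in any library. One nuclear match, Ndufa4, encodes a protein that is now assigned to complex IV, and it was kept. Sums, medians and counts over the 36 nuclear genes include it, the lists of core and accessory subunits cover the other 35, and its own values are given apart. Ndufab1 and Ndufb1-ps, whose symbols do not match, were counted outside the 43.

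Total back skin was dissociated with collagenase and trypsin and profiled by droplet single-cell RNA sequencing, which counts unique molecular identifiers (UMIs) at the 3' ends of transcripts, in 10 libraries. At E15.5 there were 2 controls, replicates 2 and 3, and 2 MOF cKO libraries, replicates 5 and 6 (MOFfl/fl/K14Cre), and at E16.5 there were 2 controls and 2 MOF cKO libraries of the same genotype, replicates 1 and 2 each. The E17.5 stage had a single control library and a single QPC cKO library (QPCfl/fl/K14Cre). MOF, gene symbol Kat8, acetylates lysine 16 of histone H4, and QPC, gene symbol Uqcrq, is a subunit of respiratory complex III. The Krt14 promoter drives Cre in the surface epithelium, so dermal fibroblasts lie outside the cells in which the floxed alleles were deleted, and the labels give the controls only as control. The study describes its controls as littermates, wild type or heterozygous for MOF, without giving the genotype of each library. All mice were on a mixed C57Bl/6J and CD-1 background. Stage and 10x chemistry changed together, and levels were not compared between stages. No label says how the libraries of a group were related beyond their numbers, so p-values measure the spread between these libraries.

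Complex I passes electrons from NADH to ubiquinone and couples this to proton pumping. Its matrix arm holds the flavin and the chain of iron-sulfur clusters, and its membrane arm holds the proton channels. The catalytic core is made of 14 subunits, of which 7 are encoded in the nucleus and 7, the mt-Nd genes, in the mitochondrial genome. The other subunits are called accessory, and all nuclear subunits are imported, so the complex needs transcripts from both genomes. Dedicated assembly factors build the arms separately and join them. In skin, basal epidermal cells divide and attach to the basement membrane, suprabasal cells differentiate towards the barrier, and fibroblasts make the dermis.

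Levels are given as UMIs per 1000000 UMIs of the cells summed (CPM). Basal cells were taken as kept cells with at least 10 UMIs of Krt5 and Krt14 and under 10 of Krt1 and Krt10, suprabasal cells as those with at least 20 UMIs of Krt1 and Krt10, and fibroblasts as those with at least 30 UMIs of Col1a1 and Col3a1 and under 10 of Krt5 and Krt14. Libraries held 13609345 to 203392303 UMIs, and 716 to 10653 cells per library were kept. At E15.5 each library gave 901 to 2584 basal, 147 to 361 suprabasal and 4376 to 7389 fibroblast cells. The E16.5 MOF cKO libraries gave only 21 and 22 basal and 9 and 13 suprabasal cells, against 239 and 464 basal and 31 and 66 suprabasal cells in the E16.5 controls. Markers outside the thresholds followed the names of the cells only in part. Trp63, a basal transcription factor, stood at 114 to 348 CPM in basal cells of the 10 libraries, and Dcn, a dermal proteoglycan, at 2211 to 3674 in fibroblasts. On the log2 scale in controls, Trp63 was fitted 5.89 higher in basal cells than in fibroblasts, and Dcn was fitted 1.11 lower. In suprabasal against basal cells of the controls, the suprabasal markers Lor (6.5), Sbsn (4.75), Dsg1a (4.33), Krtdap (2.80) and Dmkn (1.90) were fitted higher. Of the basal markers outside the thresholds, Col17a1 and Itgb4 (each -1.43), Itga6 (-1.32) and Trp63 (-0.61) were fitted lower. The basal keratin Krt15 went the other way, at 0.44. Loricrin (Lor), a late suprabasal gene, stood at 39484 and 24479 CPM in suprabasal cells of the E16.5 controls and at 145 and 51.4 in the E16.5 MOF cKO libraries, so the suprabasal cells of those groups also differed in a late differentiation gene.

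Some libraries stood apart. At E17.5, 1270 of 2807 basal cells of the control carried 30 or more UMIs of Col1a1 and Col3a1, against 98 of 1066 in QPC cKO, and the summed fibroblast markers in basal cells stood at 30716 and 5376 CPM. The E17.5 libraries shared 1702 barcodes, 20.7% of the smaller library, against at most 0.746% for any other pair. Among E16.5 basal cells 75 of 239 in control replicate 1 and 23 of 464 in control replicate 2 were collagen-high, and none were in the MOF cKO libraries. The study describes one E15.5 MOF cKO embryo as a mosaic that kept some undeleted cells. That library is replicate 6, and its results are given with and without it. The 7 basal markers, which include Krt5 and Krt14, summed in basal cells to 15931 and 13773 CPM in the E15.5 controls, 6529 in MOF cKO replicate 5 and 12506 in replicate 6. Replicate 5 is the E15.5 MOF cKO library with the lower complex I sums in basal and suprabasal cells. In fibroblasts its nuclear sum was the higher, at 6166 CPM against 5866 in replicate 6. The list of hair follicle markers stood at 3797 and 2409 CPM in basal cells of the E16.5 MOF cKO libraries against 1082 and 1213 in the controls. Nearly all of it was Krt17, and Shh was at 0 UMIs in basal cells of both of those MOF cKO libraries. Immune markers, of which Lyz2 was the highest, reached 814 CPM in basal cells of E16.5 MOF cKO replicate 2 and 18.4 to 138 in the other 3 E16.5 libraries. The part of these cells and markers in the results below was not tested, except where values without collagen-high cells are given.

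The deleted genes were read first. Kat8 stood at 13.0 and 13.7 CPM in basal cells of the E15.5 controls and at 13.4 and 10.3 in MOF cKO, and at 16.4 and 14.9 in the E16.5 controls and 8.31 and 4.51 in MOF cKO. In suprabasal cells it stood at 12.2 and 14.6, then 9.53 and 8.70 at E15.5, and at 24.1 and 14.5, then 10.4 and 3.43 at E16.5. In fibroblasts, outside the Cre lineage, it stood at 9.18 and 9.62, then 6.83 and 5.98 at E15.5, and at 9.60 and 8.23, then 2.81 and 5.39 at E16.5. All 4 MOF cKO libraries were thus below the controls of their stage in suprabasal cells and in fibroblasts, and in basal cells at E16.5 but not at E15.5. The edgeR quasi-likelihood test did not call it where it was tested, which was all but suprabasal cells at E16.5 (adjusted p = 0.997 in basal cells and 0.194 in fibroblasts at E15.5, 0.460 and 0.136 at E16.5). Over both stages its log2 fold change was -0.73 ± 0.171 (SE, unadjusted p = 0.00243, edgeR adjusted p = 0.110) in fibroblasts and -0.22 ± 0.298 (adjusted p = 0.750) in basal cells. The E16.5 MOF cKO values rest on 3 and 2 UMIs in basal cells and on 2 and 1 in suprabasal cells, so they carry a wide counting error. Since 3' counts do not show which exons a transcript holds, and the deleted exons are not given in the sources used here, these levels do not check the labels. Uqcrq stood at 103 CPM in basal cells of the E17.5 control and 45.7 in QPC cKO, at 144 and 27.8 in suprabasal cells, and at 69.4 and 122 in fibroblasts. It was thus lower in the epithelial cells of QPC cKO and higher in the fibroblasts.

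Promoter sequence was read for the nuclear genes because a chromatin regulator was deleted, and 32 of 36 were found in the RefSeq promoter table (GRCm38.p6, 250 bases before to 50 after the gene start). For the 6 genes below, the 150 bases before the start are printed 5' to 3' on the strand of the gene, as they include the nuclear members with the largest fitted differences in basal or suprabasal cells. Ndufb3 (chr1:58586247-58586396, plus strand), Ndufa3 (chr7:3617223-3617372, plus strand), Ndufa8 (chr2:36049339-36049488, minus strand) and Ndufa9 (chr6:126849145-126849294, minus strand) were fitted lower in MOF cKO, as was Ndufv1 (chr19:4012756-4012905, minus strand), and Ndufa4 (chr6:11907451-11907600, minus strand) was fitted higher. Capitals mark the motifs searched.
Ndufb3: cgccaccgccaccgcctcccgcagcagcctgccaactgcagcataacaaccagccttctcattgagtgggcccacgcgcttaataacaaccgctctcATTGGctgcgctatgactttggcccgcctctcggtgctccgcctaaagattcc
Ndufa3: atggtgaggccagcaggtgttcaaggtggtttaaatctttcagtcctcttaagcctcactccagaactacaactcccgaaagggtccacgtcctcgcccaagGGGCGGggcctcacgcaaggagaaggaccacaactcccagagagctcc
Ndufa8: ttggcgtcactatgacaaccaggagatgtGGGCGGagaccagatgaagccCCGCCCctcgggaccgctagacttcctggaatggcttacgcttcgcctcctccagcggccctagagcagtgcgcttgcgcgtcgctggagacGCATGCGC
Ndufa9: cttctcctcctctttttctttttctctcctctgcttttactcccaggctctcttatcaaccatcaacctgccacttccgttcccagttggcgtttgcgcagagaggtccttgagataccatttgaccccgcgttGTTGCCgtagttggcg
Ndufv1: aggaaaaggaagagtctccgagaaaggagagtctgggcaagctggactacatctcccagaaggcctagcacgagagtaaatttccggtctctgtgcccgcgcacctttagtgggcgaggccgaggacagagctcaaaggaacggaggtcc
Ndufa4: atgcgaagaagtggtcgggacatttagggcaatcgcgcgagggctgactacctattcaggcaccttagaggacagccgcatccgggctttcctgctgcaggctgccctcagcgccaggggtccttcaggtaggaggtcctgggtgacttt

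The capitals are a CCAAT box (CCAAT) in Ndufb3, an SP1 motif (GGGCGG) in Ndufa3, an NRF1 motif (GCATGCGC) and 2 SP1 motifs in Ndufa8, and an RFX motif (GTTGCC) in Ndufa9. Motifs were searched on both strands, none contains another, and no motif fell in the printed bases of Ndufv1 or Ndufa4. Over the whole 300 bases, the YY1 motif (AAGATGGC) was present in 7 of 32 nuclear members, 21.9%, against 3.19% of 27025 genes of all kinds in the table. Its 7 holders were Ndufa3, Ndufa9, Ndufb8, Ndufc1, Ndufs4, Ndufs6 and Ndufs7. NRF1, the motif of nuclear respiratory factor 1, was present in 3 members (Ndufa6, Ndufa8 and Ndufa11), 9.38% against 3.05%. The other shares were 3.12% against 4.31% for an ETS motif (CCGGAAGT), 43.8% against 38.2% for SP1, 31.2% against 41.1% for CCAAT, 12.5% against 15.7% for a TATA box (TATAAA) and 6.25% against 14.1% for RFX. A match is a description of letters and not of a bound site.

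The mitochondrial members lie on chromosome M of GRCm38.p6. Along the molecule, mt-Nd1 spans 2751 to 3707, mt-Nd2 3914 to 4951, mt-Nd3 9459 to 9806, mt-Nd4l 9877 to 10173, mt-Nd4 10167 to 11544 and mt-Nd5 11742 to 13565. The light-strand gene mt-Nd6 spans 13552 to 14070. The ends of mt-Nd4l and mt-Nd4 overlap, as do those of mt-Nd5 and mt-Nd6 on opposite strands, so the counts of these neighbours could share reads. Cells with 10% or more of their UMIs from mt- genes had been removed, which caps the level any mt-Nd gene can reach.

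In control skin with TMM scaling, which sets most genes level between libraries, many complex I transcripts of nuclear origin were higher in suprabasal than in basal cells, and no mt-Nd gene was called. Over the 5 control libraries, with the library as a block, the edgeR test called 17 of 36 nuclear members higher and 0 lower in suprabasal cells, against 14.9% of all genes higher and 14.6% lower. The median log2 fold change was 0.28 or above for each of the core, matrix arm and membrane arm lists, with 3 of 7 core, 4 of 9 matrix arm and 10 of 19 membrane arm accessory genes higher. Ndufs5, an intermembrane-space subunit of the membrane arm, stood at 185, 177, 149, 222 and 161 CPM in basal cells and at 235, 238, 197, 297 and 224 in suprabasal cells (E15.5 replicates 2 and 3, E16.5 replicates 1 and 2, then E17.5). It was higher in each of the 5 libraries, with a log2 fold change of 0.55 ± 0.0819 (SE, adjusted p = 0.00261). Ndufv3 and Ndufa9, accessory subunits of the matrix arm, rose by 0.52 and 0.46 on the log2 scale, Ndufb4 of the membrane arm rose by 0.49, and Ndufs3, a core subunit of the matrix arm, rose by 0.49. Of the core, Ndufs7 and Ndufv1 were the other genes called. None of the 7 mt-Nd genes was called in either direction by edgeR, their log2 fold changes lay between -0.08 and 0.09, and none reached an unadjusted p under 0.05. In CPM the mt-Nd sums of suprabasal cells were 9567 and 9250 at E15.5, against 10585 and 10259 in basal cells. At E16.5 they were 8811 and 6237 against 10286 and 8756. At E17.5 the order was the other way, 10350 against 8358, and 10397 against 10344 without collagen-high cells. When libraries were scaled by size alone, the median of all genes moved to -0.20 and that of the nuclear members to 0.14, and 5 of 36 were called higher and 1 lower, against 11.1% of all genes higher and 19.2% lower. The count of higher members was thus near the share of all genes under that scaling, while their median stayed above that of all genes. Leaving out any 1 of the 5 control libraries left 6 to 11 calls. The 6 stood against 9.79% of all genes higher without E15.5 replicate 3, and the 11 against 15.8% without E17.5. Without the library as a block 0 were called higher, against 6.79%.

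Against fibroblasts, the basal cells of the controls were higher in the catalytic core of both genomes. edgeR called 7 of 7 nuclear core genes and 7 of 7 mt-Nd genes higher in basal cells, and 16 of 36 nuclear members were higher and 4 lower in all, against 27.9% of all genes higher and 27.6% lower. The 23 higher members became 13 under a limit of 5% mt- UMIs, against 22.9% of all genes, and 1 without the library as a block, against 12.5%. The core genes differed by log2 fold changes of 0.16 to 0.49 and the mt-Nd genes by 0.35 to 0.64. mt-Nd2, a proton-pumping subunit, stood at 3225, 3129, 1778, 1434 and 2268 CPM in basal cells and at 2169, 2187, 1164, 935 and 1461 in fibroblasts, in the library order above. It was higher in basal cells of each library, by 0.64 ± 0.0641 (SE) on the log2 scale (adjusted p = 0.000951), and mt-Nd5 and mt-Nd6 followed with 0.63 and 0.56. Ndufs6, a zinc-binding subunit of the matrix arm, rose by 0.59, and Ndufa10 of the membrane arm rose by 0.51. The 4 genes that were lower in basal cells were Ndufa13 (-0.53), Ndufa3 (-0.37), Ndufv3 (-0.30) and Ndufa2 (-0.27), all of them accessory. Ndufa13 stood at 196, 212, 217, 273 and 229 CPM in basal cells and at 329, 348, 285, 497 and 260 in fibroblasts, lower in basal cells of each library. Without E17.5 the number of lower genes was 7, and without any 1 of the other controls it was 2. The shares of all genes lower in those fits are not given here, so these counts have no background beside them.

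The summed mt-Nd level was also higher in basal cells than in fibroblasts in control and cKO libraries alike. In basal cells the 7 mt-Nd genes summed to 8358 to 11871 CPM over the 10 libraries, in suprabasal cells to 3649 to 11675 and in fibroblasts to 5208 to 9039. Basal cells exceeded the fibroblasts of their own library in 10 of 10. The 36 nuclear genes summed to 4118 to 8234 CPM in basal cells and were higher in suprabasal cells of the same library in 8 of 10. The mitochondrial to nuclear ratio was 1.06 to 2.24 in basal cells, 0.723 to 1.64 in suprabasal cells and 0.706 to 1.54 in fibroblasts. It was higher in basal cells than in fibroblasts in 10 of 10 libraries, and lower in suprabasal than in basal cells in 9 of 10. Suprabasal cells exceeded fibroblasts in 10 of 10 from summed counts, but in 5 of 10 when each cell had the same weight, in 7 of 10 under a limit of 5% mt- UMIs in 8 of 10 with thresholds per 10000 UMIs and in 9 of 10 without collagen-high cells. The mean difference over libraries was 0.187 from summed counts and -0.0190 from the mean over cells, so the order of these cell types depends on the weighting. Basal cells stood above fibroblasts in 10 of 10 under each of these alternatives. Since 3' counts of different genes are not on a scale of transcript length, the ratio orders the cells and does not give copies of one genome against the other.

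**Figure D1:**
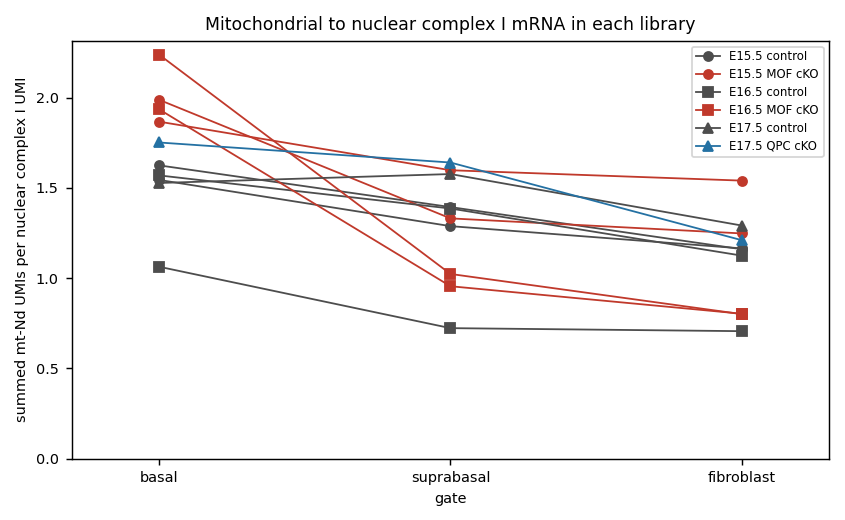
Ratio of the summed mt-Nd level to the summed nuclear complex I level (no unit) in basal, suprabasal and fibroblast cells, with a point for each library and cell type and a line joining the cells of a library. Basal cells lie above fibroblasts in 10 of 10 libraries, and the highest basal ratio, 2.24, belongs to an E16.5 MOF cKO library.

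The loss of MOF was then compared with the controls in basal cells, the cells in which the driver is active. The fitted differences of the nuclear members were mostly negative in MOF cKO, those of the mt-Nd genes were not, and no single member passed the adjusted threshold by edgeR. The nuclear sum was 6512 and 6642 CPM in the E15.5 controls and 4593 and 6356 in MOF cKO replicates 5 and 6, and it was 6553 and 8234 in the E16.5 controls and 4118 and 4822 in MOF cKO. Each MOF cKO library was below both controls of its stage, with replicate 6 the nearest to them. Without Ndufa4 the sums were 6092 and 6217, then 4071 and 5894 at E15.5, and 6228 and 7743, then 3542 and 4360 at E16.5, in the same order. Markers moved with these sums in basal cells. At E16.5 the basal markers summed to 14323 and 18466 CPM in controls, then 10692 and 10756 in MOF cKO, and the suprabasal markers to 1785 and 3508, then 6125 and 2668. At E15.5 the fibroblast markers summed to 1899 and 1875, then 2796 and 2417. Their part in the result was not tested. The 7 core genes alone summed to 911 and 880, then 524 and 897 at E15.5, and to 1158 and 1062, then 394 and 562 at E16.5. Here replicate 6 lay between the controls. The mt-Nd sum was 10585 and 10259 in the E15.5 controls and 9137 and 11871 in MOF cKO, and 10286 and 8756 in the E16.5 controls and 9223 and 9337 in MOF cKO, so the groups overlapped. The mitochondrial to nuclear ratio was higher in each MOF cKO library than in both controls of its stage, at 1.99 and 1.87 against 1.63 and 1.54 at E15.5 and at 2.24 and 1.94 against 1.57 and 1.06 at E16.5. At E16.5 this did not hold for MOF cKO replicate 2 under a pair of alternatives. It stood at 1.57 against 1.71 in control replicate 1 as a mean over cells, and at 1.81 against 1.92 with thresholds per 10000 UMIs. In fibroblasts, outside the Cre lineage, the ratio was also higher in both MOF cKO libraries at E15.5. The fibroblast ratios there were 1.25 and 1.54, against 1.16 in each control. At E16.5 both MOF cKO fibroblast ratios lay between those of the controls, 1.12 and 0.706.

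**Figure D2:**
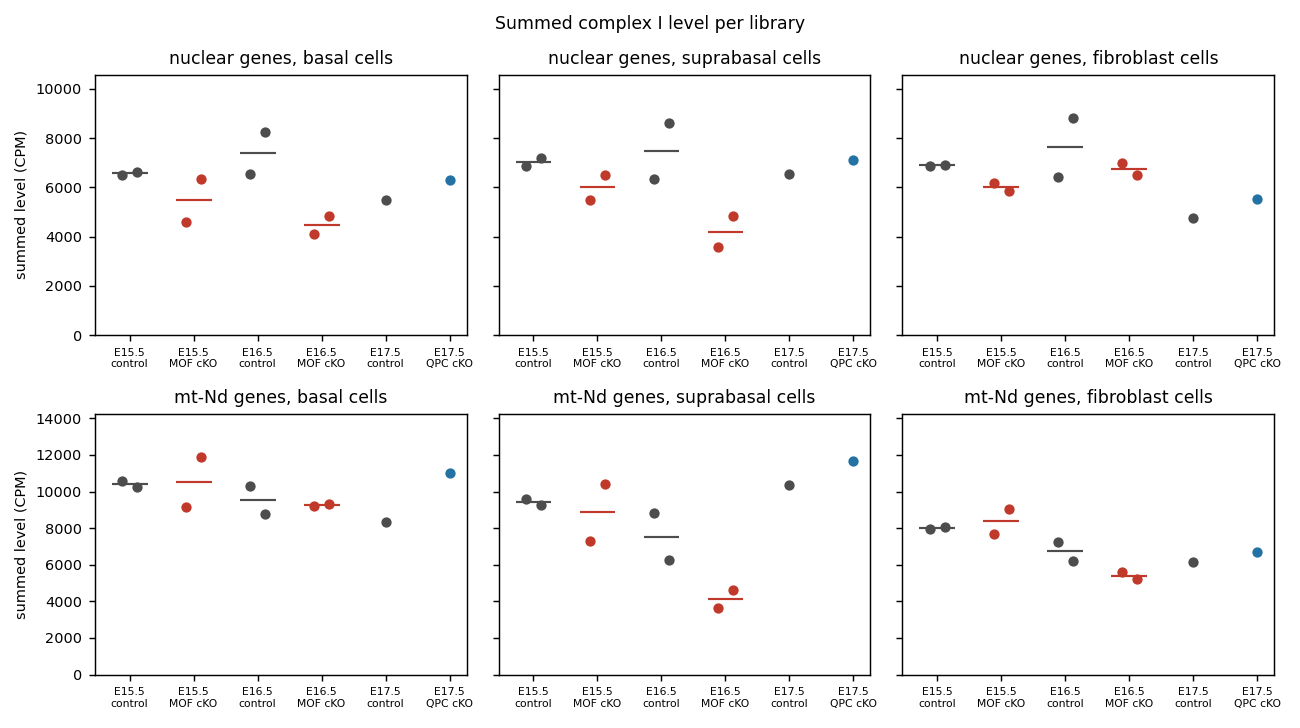
Summed level of the 36 nuclear genes (upper row) and the 7 mt-Nd genes (lower row) in CPM, with a point for each library and a line at the mean of each group of 2, in basal, suprabasal and fibroblast cells. In basal cells the nuclear sums of the E16.5 MOF cKO libraries, 4118 and 4822, lie below both controls, 6553 and 8234, while the mt-Nd sums overlap.

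Gene by gene in basal cells, edgeR called 0 of 43 members at E15.5, where it called 0% of 14364 genes, and 0 of 43 at E16.5, where it called 0.243% of 9454 genes. On simulated data the E16.5 fits of basal and of suprabasal cells recovered none of the changed genes, so a lack of calls there does not show a lack of change. DESeq2 called 0 at E15.5, where it called 2.03% of all genes higher and 1.22% lower, and 1 higher and 2 lower of 43 at E16.5, where it called 6.49% higher and 2.37% lower. At E15.5, 30 of 36 nuclear log2 fold changes were negative with a median of -0.25 against -0.01 for all genes, 0 were lower at an unadjusted p under 0.05 (3.75% of all genes were), and 1 mt-Nd gene was higher. At E16.5, 31 of 36 were negative with a median of -0.41 against -0.11 for all genes, and 7 were lower at an unadjusted p under 0.05, against 10.5% of all genes. Over both stages, with stage as a term, edgeR again called 0 of 43 members and 0% of 12582 genes. There 32 of 36 nuclear log2 fold changes were negative with a median of -0.35 against -0.08, and 11 nuclear members were lower and 1 higher at an unadjusted p under 0.05, against 7.38% of all genes lower. DESeq2 called 1 higher and 2 lower there, against 3.69% and 1.57% of all genes. Without Ndufa4 the nuclear median was -0.25 at E15.5, -0.41 at E16.5 and -0.35 over both stages. These values depend on the scaling in one respect. With libraries scaled by size alone, the medians of nuclear members and of all genes were -0.37 and -0.15 at E15.5, -0.90 and -0.64 at E16.5, and -0.61 and -0.33 over both stages, so the members stood below the median of all genes under either scaling. The mt-Nd medians of 0.06 at E15.5, 0.25 at E16.5 and 0.04 over both stages turned to -0.07, -0.26 and -0.24 under size alone.

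Among the nuclear core, all 7 genes had negative log2 fold changes at each stage, with medians of -0.29 at E15.5, -0.63 at E16.5 and -0.51 over both. Ndufv1, which binds NADH and the flavin, stood at 103 and 98.6 CPM in the E15.5 controls and 48.3 and 105 in MOF cKO, and at 130 and 124 in the E16.5 controls and 41.6 and 47.4 in MOF cKO. Its partner Ndufv2 stood at 174 and 173, then 127 and 179 at E15.5, and at 228 and 194, then 88.7 and 101 at E16.5. In both genes replicate 5 was below the E15.5 controls, replicate 6 was not, and both E16.5 MOF cKO libraries were below both controls. For Ndufv1 at E16.5 the log2 fold change was -1.01 ± 0.31 (SE, edgeR adjusted p = 0.181), which did not pass.

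Ndufs1, which carries several iron-sulfur clusters, stood at 57.3 and 53.4 CPM in the E15.5 controls, 28.4 and 53.5 in MOF cKO, 51.0 and 56.6 in the E16.5 controls and 22.2 and 33.8 in MOF cKO. Ndufs7, which carries the last cluster of the chain, stood at 154 and 155, then 78.8 and 157 at E15.5, and at 195 and 167, then 38.8 and 104 at E16.5. These genes repeated the pattern of Ndufv1, with replicate 5 lowest at E15.5 and both MOF cKO libraries lower at E16.5. Ndufs3 stood at 121 and 119, then 79.6 and 120 at E15.5, and at 161 and 153, then 72.0 and 94.7 at E16.5. Ndufs8, another iron-sulfur subunit, stood at 122 and 120, then 58.7 and 114 at E15.5, and at 150 and 152, then 66.5 and 74.4 at E16.5. Among the core genes given here, Ndufs8 was the one for which both MOF cKO libraries of each stage were below both controls.

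Of the accessory genes, 7 of 9 in the matrix arm and 16 of 19 in the membrane arm had negative log2 fold changes at E15.5, and 6 of 9 and 18 of 19 at E16.5. Ndufb3, a small membrane arm subunit, had the largest fitted difference. It stood at 121 and 124 CPM in the E15.5 controls and 36 and 100 in MOF cKO, and at 90.0 and 116 in the E16.5 controls and 27.7 and 27.1 in MOF cKO. All 4 MOF cKO libraries were below the controls of their stage, and the log2 fold change over both stages was -1.03 ± 0.293 (SE, adjusted p = 0.238). At E16.5 these values rest on 10 and 12 UMIs in the MOF cKO libraries. Ndufa3, another small membrane arm subunit, stood at 72.3 and 80.0, then 30.1 and 68.3 at E15.5, and at 151 and 208, then 74.8 and 51.9 at E16.5. Ndufa8, a cysteine-rich subunit on the intermembrane face, stood at 131 and 125, then 62.0 and 116 at E15.5, and at 180 and 169, then 63.7 and 69.9 at E16.5. Both were below the controls in all 4 MOF cKO libraries, with log2 fold changes over both stages of -0.78 ± 0.266 for Ndufa3 and -0.65 ± 0.193 for Ndufa8 that did not pass (adjusted p = 0.282 and 0.247).

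Ndufa4, the complex IV protein that the symbol rule brought in, was fitted the other way. It stood at 420 and 425 CPM in the E15.5 controls and 522 and 462 in MOF cKO, and at 325 and 491 in the E16.5 controls and 576 and 462 in MOF cKO. Both E15.5 MOF cKO libraries were above the controls, and the E16.5 groups overlapped. Its log2 fold change over both stages was 0.57 ± 0.239 (SE, adjusted p = 0.318). Ndufa7 of the matrix arm was also fitted higher, by 0.39 over both stages (adjusted p = 0.431).

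**Figure D3:**
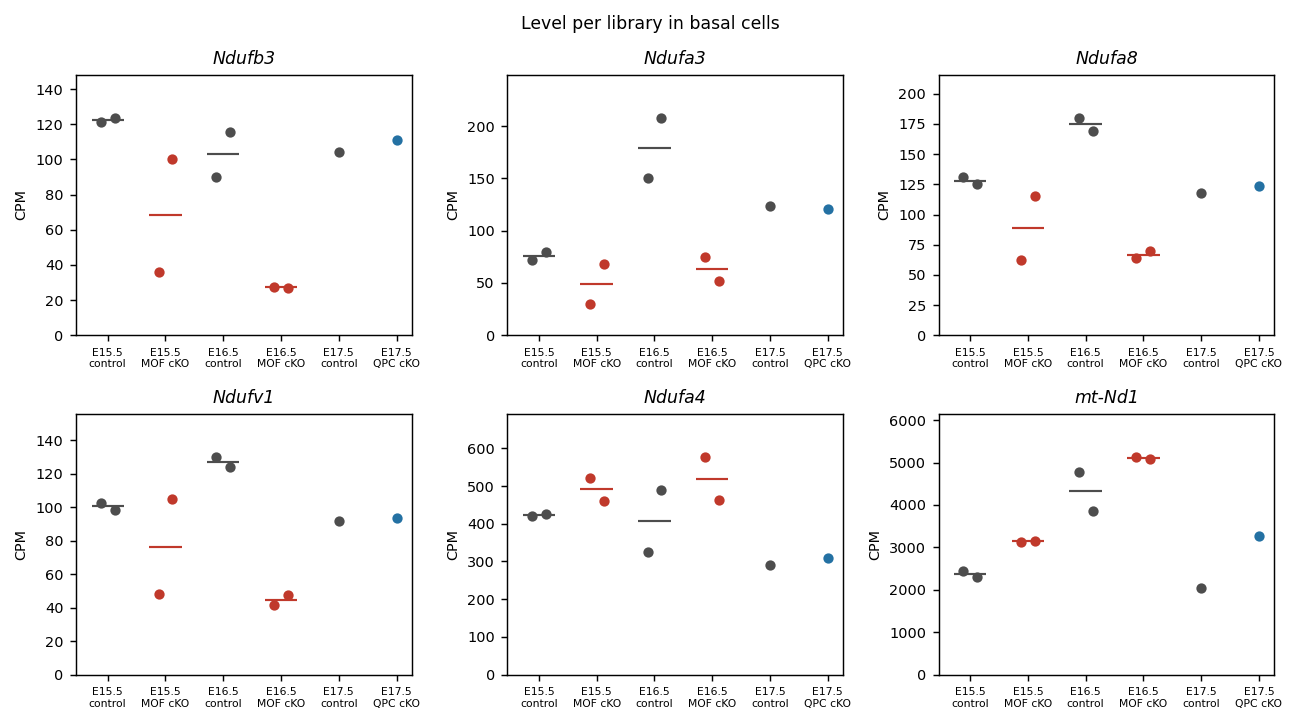
Levels of Ndufb3, Ndufa3, Ndufa8, Ndufv1, Ndufa4 and mt-Nd1 in basal cells in CPM, with a point for each library and a line at each group mean. Ndufb3 lies at 27.7 and 27.1 in the E16.5 MOF cKO libraries against 90.0 and 116 in the controls, and E15.5 MOF cKO replicate 6 lies near its controls in the first 4 genes.

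Of the mt-Nd genes, mt-Nd1, which sits at the ubiquinone site, was the one with higher values in all 4 MOF cKO libraries. It stood at 2454 and 2311 CPM in the E15.5 controls and 3135 and 3146 in MOF cKO, and at 4787 and 3863 in the E16.5 controls and 5124 and 5081 in MOF cKO. It was fitted 0.56 ± 0.186 (SE) higher on the log2 scale for E15.5 alone (adjusted p = 0.508) and 0.63 ± 0.184 over both stages (adjusted p = 0.247), neither of which passed. Scaled by library size alone, the latter was 0.32. mt-Nd3, a small membrane subunit, stood at 403 and 397, then 328 and 435 at E15.5, and at 245 and 383, then 657 and 386 at E16.5, where it was fitted 1.22 ± 0.457 higher (adjusted p = 0.215) with most of the difference in MOF cKO replicate 1. The proton-pumping subunits did not follow mt-Nd1. mt-Nd2 stood at 3225 and 3129, then 2214 and 3500 at E15.5, and at 1778 and 1434, then 1158 and 1389 at E16.5. mt-Nd4 stood at 3503 and 3330, then 2682 and 3839 at E15.5, and at 2997 and 2542, then 1782 and 2057 at E16.5. In both genes E15.5 replicate 5 was below and replicate 6 above the controls, and the E16.5 MOF cKO libraries were below their controls in CPM. mt-Nd5 stood at 778 and 840, then 551 and 744 at E15.5, and at 390 and 367, then 316 and 318 at E16.5, lower in each MOF cKO library. mt-Nd4l ranged from 67.0 to 193 and mt-Nd6 from 13.5 to 59.9 CPM over these 8 libraries, with overlapping groups at E16.5.

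Without the mosaic library, replicate 6, the E15.5 basal comparison read differently. edgeR then called 24 of 36 nuclear genes lower and 1 higher, and 3 mt-Nd genes lower and 2 higher, against 26.8% of 15213 genes lower and 22.6% higher. With 1 MOF cKO library left, that library is assumed to vary as the controls do, and the calls hold for that library. The median log2 fold change of the nuclear members was -0.42 against -0.04 for all genes. Ndufb3 was lower by -1.47 (adjusted p = 8.24e-05), Ndufa3 by -1.04 (0.000434), Ndufv3 by -0.81 (0.000438), Ndufv1 by -0.76 (0.000364) and Ndufa8 by -0.75 (0.000373). Ndufa4 was higher by 0.60 (0.000443), mt-Nd1 by 0.69 (0.000259) and mt-Nd4l by 0.36 (0.0231). Without replicate 5 instead, 1 member was lower (Ndufb3, -0.29, adjusted p = 0.0471) and 1 higher (mt-Nd1, 0.40, adjusted p = 0.0192), against 2.57% of all genes lower and 2.4% higher, so both genes kept their directions in the mosaic library. Over both stages the fit without replicate 6 called 6 of 43 members lower and 1 higher, against 4.66% and 3.47% of all genes. With collagen-high cells left out, edgeR called 0 members at each stage, and the nuclear medians were -0.46 for E16.5 and -0.22 for E15.5.

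In suprabasal cells nuclear members were mostly fitted lower in MOF cKO at both stages, and at E16.5 the values rest on few cells that also differed in their markers. The suprabasal markers, which include Krt1, Krt10 and Lor, summed to 80420 and 76359 CPM in the E16.5 controls and 27617 and 28144 in MOF cKO. The basal markers summed to 13987 and 14203, then 33042 and 25452, and the hair follicle markers to 1508 and 1148, then 7325 and 4841. Of the suprabasal markers outside the thresholds, Lor (-7.81, edgeR adjusted p = 0.0112) and Dsg1a (-0.37) were fitted lower at E16.5. Sbsn (0.74), Krtdap (0.38) and Dmkn (0.23) were fitted higher, and Lor alone passed the adjusted threshold. At E15.5 the basal markers summed to 14873 and 8843, then 3953 and 8135, the fibroblast markers to 1020 and 687, then 2161 and 1930, and the immune markers to 23.1 and 17.9, then 109 and 42.2. The part of this in the differences below was not tested. The nuclear sum was 6863 and 7179 CPM in the E15.5 controls and 5482 and 6513 in MOF cKO, and 6356 and 8628 in the E16.5 controls and 3566 and 4824 in MOF cKO. Each MOF cKO library was below both controls of its stage. The mt-Nd sum was 9567 and 9250, then 7298 and 10410 at E15.5, where the groups overlapped, and 8811 and 6237, then 3649 and 4608 at E16.5, where they did not. As a mean over cells the E16.5 levels were 8375 and 4968, then 1289 and 2588, so within the 9 and 13 MOF cKO cells the mt-Nd share was higher in cells with more UMIs. Of the 13 cells of MOF cKO replicate 2, 3 were collagen-high, and without them its mt-Nd sum was 3251. edgeR called 0 of 43 members at E15.5 (0% of 10819 genes), 0 of 42 tested at E16.5 (4.03% of 4266 genes) and 0 of 43 over both stages (0.128% of 9405 genes). DESeq2 called 0, 2 and 5 members lower, against 0.213%, 2.6% and 0.606% of all genes. At an unadjusted p under 0.05 there were 2, 9 and 13 nuclear members lower, against 2.75%, 11.9% and 4.93% of all genes. The nuclear medians were -0.26, -0.56 and -0.40, against -0.01, -0.05 and -0.06 for all genes, and the medians of the core alone were -0.31, -1.01 and -0.60. Under scaling by size alone at E16.5 the medians were -1.06 for the nuclear members and -0.58 for all genes, and 4 of 42 members were called lower, against 4.2% of all genes.

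Ndufa9, the matrix arm subunit near the ubiquinone site, stood at 90.2 and 93.9 CPM in suprabasal cells of the E15.5 controls and 55.6 and 85.4 in MOF cKO, and at 141 and 137 in the E16.5 controls and 5.19 and 27.4 in MOF cKO. Ndufb3 stood at 133 and 149, then 76.3 and 126 at E15.5, and at 96.5 and 163, then 31.1 and 34.3 at E16.5. In both genes all 4 MOF cKO libraries were below the controls of their stage. The E16.5 log2 fold changes were -2.48 ± 0.562 for Ndufa9 (adjusted p = 0.0567) and -1.52 ± 0.493 for Ndufb3 (adjusted p = 0.122), neither of which passed. They rest on 1 and 8 UMIs of Ndufa9 and 6 and 10 of Ndufb3 in the MOF cKO libraries, where 12 and 4 of the 43 members had under 10 UMIs. At E15.5 the members with the lowest unadjusted p were Ndufa1 (-0.50) and Ndufa3 (-0.46), small membrane arm subunits, each with an adjusted p of 0.631. Ndufa4 was again fitted higher over both stages (0.63 ± 0.256, adjusted p = 0.344).

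In CPM the mt-Nd genes of suprabasal cells were ordered much as in basal cells at E15.5, and mt-Nd1 and mt-Nd3 were not at E16.5. mt-Nd1 stood at 2231 and 2176 CPM in the E15.5 controls and 2632 and 2859 in MOF cKO, and at 4207 and 2910 in the E16.5 controls and 2222 and 2532 in MOF cKO. It was above the controls in both MOF cKO libraries at E15.5, as in basal cells, and below them at E16.5. mt-Nd2 stood at 2884 and 2756, then 1657 and 2997 at E15.5, with replicate 5 below and replicate 6 above the controls as in basal cells. mt-Nd3 stood at 197 and 265, then 177 and 178 at E16.5, below both controls in CPM. With TMM scaling the E16.5 log2 fold changes were 0.10 for mt-Nd3 (edgeR adjusted p = 0.876) and -0.07 for mt-Nd1 (adjusted p = 0.925). The lower order of mt-Nd3 thus did not hold in the fit. mt-Nd5 stood at 776 and 742, then 449 and 638 at E15.5, and at 358 and 287, then 109 and 117 at E16.5. It was lower in all 4 MOF cKO libraries, with an E16.5 log2 fold change of -1.01 ± 0.361 (adjusted p = 0.142). The mt-Nd medians were -0.14 at E15.5, -0.40 over the 6 genes tested at E16.5 and -0.36 over both stages. Without replicate 6, the E15.5 comparison called 5 of 43 members lower and 3 higher, against 6.43% and 9.06% of all genes.

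**Figure D4:**
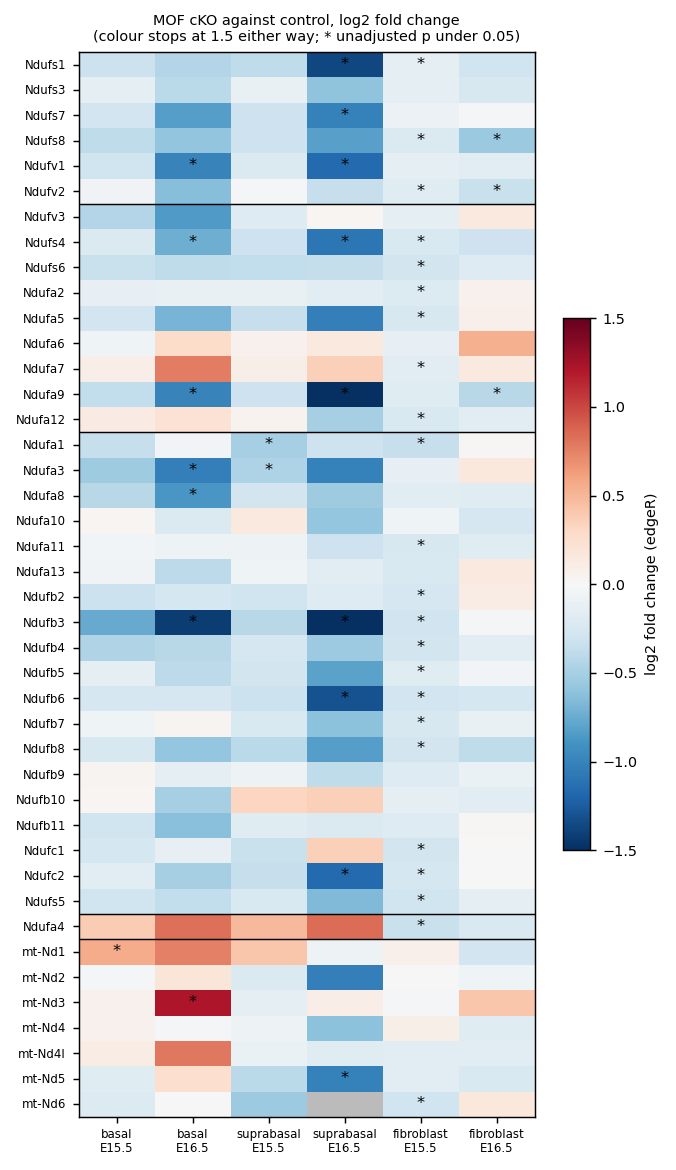
Fitted log2 fold change of MOF cKO against control for 42 of the 43 members (rows, grouped as nuclear core, matrix arm, membrane arm, Ndufa4 and mt-Nd genes) in each cell type and stage (columns), with colours that stop at 1.5 either way, stars at an unadjusted p under 0.05 and grey where a gene was not tested. No cell passed an adjusted p under 0.05 by edgeR; blue, for lower in MOF cKO, fills most nuclear rows, and Ndufa4 is red in the epithelial columns.

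In fibroblasts, which lie outside the Cre lineage, nuclear members were also mostly fitted lower in MOF cKO. The nuclear sum was 6871 and 6912 CPM in the E15.5 controls and 6166 and 5866 in MOF cKO, which did not overlap, and 6435 and 8818 in the E16.5 controls and 6997 and 6488 in MOF cKO, which did. The mt-Nd sum was 7972 and 8051 in the E15.5 controls and 7694 and 9039 in MOF cKO, which overlapped. At E16.5 the mt-Nd sum was 7237 and 6226 in controls and 5599 and 5208 in MOF cKO, which did not overlap, as in suprabasal cells. edgeR called 0 of 43 members at E15.5 (0% of 16268 genes), 0 at E16.5 (4.64% of 12569 genes) and 0 over both stages (0% of 14435 genes). At E15.5 all 36 nuclear log2 fold changes were negative, with a median of -0.22 against 0.00 for all genes, beside -0.25 in basal cells of the same stage. There 22 were lower at an unadjusted p under 0.05, against 8% of all genes, and DESeq2 called 17 lower, against 4.12% of all genes. Markers of other cells also differed in these fibroblasts. The 7 basal markers summed to 161 and 184 CPM in the E15.5 controls and 56.8 and 107 in MOF cKO, the 4 endothelial markers to 7.98 and 7.23, then 16.2 and 11.1, and the fibroblast markers to 24696 and 24257, then 28419 and 30671. Their part in the result was not tested. At E16.5 there were 26 negative, with a median of -0.15, 3 at an unadjusted p under 0.05 against 13% of all genes, and 1 called lower by DESeq2 against 7.68%. Over both stages 34 were negative, with a median of -0.17, 10 at an unadjusted p under 0.05 against 11.3% of all genes, and 10 called lower by DESeq2 against 8.04%. Markers differed in E16.5 fibroblasts too. The basal markers summed to 566 and 344 CPM in controls, then 155 and 196 in MOF cKO, and the suprabasal markers to 434 and 352, then 126 and 128. Endothelial markers summed to 6.95 and 9.09, then 25.0 and 19.2, and immune markers to 16.6 and 38.4, then 99.4 and 207. The part of these E16.5 markers was not tested.

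Ndufa1, a membrane arm subunit, stood at 116 and 120 CPM in fibroblasts of the E15.5 controls and 94.7 and 94.3 in MOF cKO, a log2 fold change of -0.34 ± 0.0563 (SE, adjusted p = 0.181). Ndufa4, which was fitted higher in the epithelial cells, stood at 538 and 535, then 440 and 425, and was fitted lower by -0.33 ± 0.0679 (adjusted p = 0.190). In both genes the MOF cKO libraries lay below the controls. mt-Nd6 was fitted at -0.30 (adjusted p = 0.292). At E16.5 the members with an unadjusted p under 0.05 were Ndufs8 (-0.56, adjusted p = 0.0817), Ndufa9 (-0.41, adjusted p = 0.129) and Ndufv2 (-0.33, adjusted p = 0.188). Ndufs8 stood at 136 and 121 in the E16.5 controls and 83.5 and 75.8 in MOF cKO, apart from each other, and its log2 fold change over both stages was -0.39 ± 0.0965 (adjusted p = 0.111). Ndufb8 of the membrane arm and Ndufa9 followed over both stages with -0.33 and -0.29.

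Whether the MOF cKO difference itself changed between stages or cell types was tested as an interaction, and edgeR called 0 members in any of 5 such tests. On simulated data the basal stage test and the basal and fibroblast test recovered none of the changed genes, so the lack of calls does not show that the differences were alike. Between stages it called 0.0152% of all genes in basal cells, 0.0401% in suprabasal cells and 1.26% in fibroblasts. The nuclear median of the difference (E16.5 minus E15.5) was -0.31 in basal cells against -0.28 for all genes, -0.42 in suprabasal cells against -0.29, and 0.07 in fibroblasts against -0.00451. Members with an unadjusted p under 0.05 included Ndufv2 in basal cells (-0.65, adjusted p = 0.426), Ndufa9 (-2.18, adjusted p = 0.244) and Ndufv1 (-0.98, adjusted p = 0.372) in suprabasal cells, and mt-Nd1 (-0.39) and Ndufs8 (-0.37) in fibroblasts. DESeq2 called 1 member lower, in suprabasal cells, against 0.803% of all genes. Between basal cells and fibroblasts, where edgeR called 0% of genes, DESeq2 called 5 of 43 members higher in basal cells, against 3.16% of all genes. Ndufa4 had the lowest p there, 0.89 ± 0.165 (SE) higher in basal cells (adjusted p = 0.232), followed by mt-Nd1 with 0.79, Ndufa7 with 0.47 and Ndufa12 with 0.41. mt-Nd4l (0.58) was also higher, and Ndufb3 (-0.81), Ndufa3 (-0.71) and Ndufa8 (-0.43) were lower. At an unadjusted p under 0.05 there were 3 nuclear members lower and 3 nuclear and 2 mt-Nd members higher, against 6.26% of all genes lower and 7.26% higher. The nuclear median of this difference was -0.08, near the -0.06 of all genes, and the mt-Nd median was 0.25, which turned to -0.06 under scaling by size alone. Between suprabasal and basal cells edgeR again called 0% of genes. All 7 mt-Nd genes were negative there, with a median of -0.56 and 4 of them at an unadjusted p under 0.05, where 2.13% of all genes were lower. The lowest value was that of mt-Nd2 at -0.75, and the nuclear median was -0.10 against -0.02 for all genes. These tests used the same libraries for both cell types, so they are not separate samples.

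The genes around complex I were read from lists. Of 16 complex I assembly factors, 15 were listed. In basal cells over both stages 13 of the 15 had negative log2 fold changes in MOF cKO, with a median of -0.46 against -0.08 for all genes. In suprabasal cells 12 of 15 did, with a median of -0.54 against -0.06. edgeR called 0 in each, where it called 0% of all genes in basal and 0.128% in suprabasal cells. At an unadjusted p under 0.05 there was 1 in each, against 1869 of 12582 genes in basal and 1218 of 9405 in suprabasal cells. For 8 genes of mitochondrial transcription and RNA handling the basal median was -0.53, with 6 negative, and for the 4 subunits of complex II it was -0.38, with all 4 negative. The medians of these 3 lists in basal cells lay below that of all genes (-0.08), as did that of the nuclear complex I members. The other 6 mitochondrial mRNAs had a basal median of 0.29 with TMM scaling, 5 of them positive. None of these list members was called.

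In the controls, 4 of 15 assembly factors were higher in suprabasal than in basal cells and 0 were lower, against 14.9% of all genes higher. They were Acad9 (1.95), which is also an acyl-CoA dehydrogenase, Ecsit (0.74), Ndufaf7 (0.59) and Ndufaf4 (0.49), and Sdhb of complex II rose by 0.38. Acad9 stood at 19.0, 22.2, 22.6, 32.3 and 24.1 CPM in basal cells and at 59.8, 105, 64.3, 83.5 and 107 in suprabasal cells, apart in each library. Against fibroblasts, 8 of 15 assembly factors were higher in basal cells, against 27.9% of all genes, led by Acad9 (0.98), Ndufaf1 (0.67), Ndufaf4 (0.64) and Tmem186 (0.63). Of the mitochondrial transcription list 6 of 8 were higher, among them Mterf1a (1.24), Tfb1m (1.01), the packaging factor Tfam (0.59) and the RNA polymerase Polrmt (0.53). The other mitochondrial mRNAs were higher in 6 of 6 and complex II in 2 of 4, and none of these lists had a member that was lower.

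At E17.5 the loss of Uqcrq, a subunit of complex III, was read in 1 library per group, so there is no test. A gene was counted as higher or lower when it passed 1.5-fold with exact 95% Poisson intervals apart, and these intervals cover counting error only. In basal cells 1 of 43 members, mt-Nd1, was higher and 0 were lower, against 6.61% of 12851 genes higher and 20.5% lower. In suprabasal cells mt-Nd1 was again the 1 member higher and 0 were lower, against 1.91% and 4.65% of genes, and in fibroblasts 0 members were higher or lower, against 7.54% and 4.94%. mt-Nd1 stood at 2034 CPM (2023 to 2044) in basal cells of the control and 3261 (3239 to 3283) in QPC cKO, a ratio of 1.60. In suprabasal cells it stood at 2322 (2280 to 2364) and 3728 (3646 to 3812), a ratio of 1.61. In fibroblasts it stood at 1625 and 1760. Without collagen-high cells the ratio was 1.42 in basal cells, below the threshold, and 1.59 in suprabasal cells.

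No nuclear gene passed the threshold at E17.5. The median ratio was 1.13 in basal cells with 34 of 36 above 1, 1.08 in suprabasal cells with 26 of 36 above 1, and 1.16 in fibroblasts with 36 of 36 above 1, where the medians of all genes were 0.976 in suprabasal cells and 1.08 in fibroblasts and 6465 of 12851 genes lay above 1 in basal cells. In basal cells the ratios ran from 0.948 for Ndufv3 to 1.39 for Ndufb9, a membrane arm subunit, and the core genes from 1.01 for Ndufv1 to 1.31 for Ndufs8. The nuclear sum was 5471 CPM in basal cells of the control and 6295 in QPC cKO, a ratio of 1.15 that became 1.05 without collagen-high cells. The mt-Nd sum was 8358 and 11030, a ratio of 1.32 that became 1.10. Both basal differences were thus smaller once the collagen-high cells, most of them in the control, were out.

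Within the mt-Nd genes the ratios were unequal. In suprabasal cells mt-Nd3 stood at 552 and 692 CPM (ratio 1.25) and mt-Nd2 at 3026 and 3374 (1.12), while mt-Nd4 stood at 3790 and 3336 (0.880) and mt-Nd5 at 448 and 332 (0.742). mt-Cytb, the mitochondrial subunit of complex III itself, stood at 7202 and 4705, a ratio of 0.653, and was the 1 gene called lower among the other mitochondrial mRNAs. Its ratio was 0.911 in basal cells and 1.09 in fibroblasts, where it was not called. Of the assembly factors, Acad9 (1.74) and Tmem186 (2.14) were higher in basal cells and Tmem186 (1.55) in fibroblasts. Leaving out the barcodes that both libraries listed gave basal sums with ratios of 1.15 for the nuclear and 1.31 for the mt-Nd genes.

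**Figure D5:**
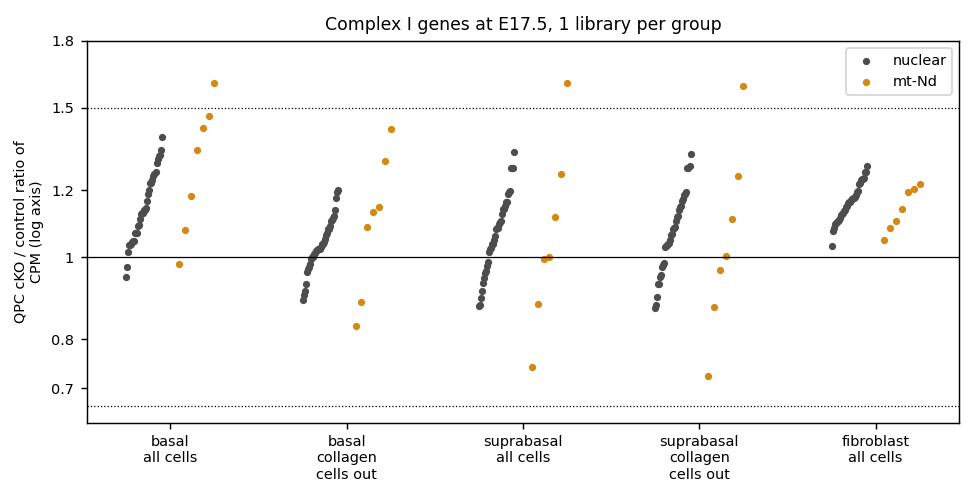
Ratio of QPC cKO to control in CPM (log axis) for each nuclear (grey) and mt-Nd (orange) gene at E17.5, with 1 library per group, for all cells of a type and with collagen-high cells left out, and dotted lines at 1.5-fold. mt-Nd1 is the 1 point beyond a dotted line, in basal cells with all cells (1.60) and in suprabasal cells with (1.61) and without (1.59) collagen-high cells.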

How the data were processed

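Per the labels, the authors processed 10x reads with Cell Ranger (versions 1.3.1 and 6.1.2 are listed) on mm10, and deposited raw UMI counts per gene and barcode, which were used as deposited. Cells with over 1000 and under 6000 genes and under 10% of mt- UMIs were kept, as in the study's methods. Counts were summed per library and cell type and tested with the edgeR 4.0.16 quasi-likelihood test (R 4.3.3, filterByExpr, TMM), Benjamini-Hochberg adjusted over all genes at 0.05. DESeq2 1.42.0, scaling by library size, no filter, other mt- limits, gates per 10000 UMIs, replicate blocks and leaving out each library were alternatives. Comparisons between cell types of the controls had the library as block. Levels (CPM) are UMIs per 1000000 UMIs of the cell type. Members and lists were chosen with earlier results of these data known. Named genes are the core subunits, members past the threshold (5 largest each way) and, where none passed, the 3 largest each way at an unadjusted p under 0.05. Tests of the summed levels were planned but are not reported, since the sums run over chosen members. The scripts were tested on simulated data. No doublet caller was run. Values of 1 withheld item are not reported here. The counting of strand is not given in the sources used here.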

Additional observations from a re-analysis of the deposited data

How the results depend on the processing

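The 57 results on genes picked as the largest differences of each main fit kept their direction in all 653 alternatives. That choice favours a stable direction, so this is no separate support for them. Core and mt-Nd genes that were named without being picked in this way are not among the 57. The 36 differences of sums and ratios, which carry no test, took the other sign in 26 of 495 alternatives, in 13 of the 36. Among them, the mt-Nd sum of MOF cKO minus control over both stages in basal cells was -79.6 CPM and ran from -763 (without E15.5 MOF cKO replicate 6) to 604 (without replicate 5) when 1 library was left out. The same difference of the ratio was 0.0292 in suprabasal cells and ran from -0.137 (without E16.5 control replicate 2) to 0.195 (without control replicate 1). The cause of the changes below was not tested. For MOF cKO against control, where edgeR called 0 members, DESeq2 gave 1 higher and 2 lower in basal cells at E16.5 and over both stages, 2 and 5 lower in suprabasal cells at E16.5 and over both stages, 17, 1 and 10 lower in fibroblasts at E15.5, at E16.5 and over both stages, 1 lower in the stage difference of suprabasal cells and 5 higher in the basal and fibroblast difference. No filter on low counts gave 1 lower in basal cells at E16.5 and over both stages, 2 in suprabasal cells at E16.5 and over both stages, 1 in fibroblasts at E15.5 and at E16.5, and 1 in the suprabasal stage difference. At E16.5 in suprabasal cells, size alone gave 4 lower and a limit of 5% mt- UMIs gave 2. Leaving out 1 library gave 0 to 3 higher and 0 to 27 lower in E15.5 basal cells, 0 to 3 and 0 to 5 in E15.5 suprabasal cells, 0 to 1 and 0 to 6 in basal cells over both stages (each maximum without MOF cKO replicate 6), and 0 to 2 lower in E16.5 suprabasal cells (2 without control replicate 2, 1 without control replicate 1). Shares of all genes are not given here for no filter, for 5% mt- UMIs or for the E16.5 suprabasal fits with 1 library out. Those counts thus have no background and are not read as results about the members.

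In the controls, the 17 members higher in suprabasal than in basal cells became 5 under size alone, 11 with no filter, 11 under 5% mt- UMIs and 6 to 11 when 1 library was left out, and DESeq2 and size alone each gave 1 lower. Of basal against fibroblast cells, the 23 higher became 13 under 5% mt- UMIs, and the 4 lower became 9 by DESeq2 and 2 to 7 when 1 library was left out. Shares of all genes are not given here for no filter or for 5% mt- UMIs in suprabasal against basal cells. The same holds for the counts of lower genes by DESeq2 and with 1 library out, so none of these has a background. Without the replicate block, which pairs the cell types of a library, the counts were 0 higher (suprabasal against basal), and 1 higher and 0 lower (basal against fibroblast). Correlations by E16.5 replicate number were -0.06, -0.03 and -0.03 in basal, suprabasal and fibroblast cells. With 2 libraries per group they cannot show whether the libraries were paired, and the study describes pairs of samples and littermate controls. Blocking on the replicate numbers left each count of calls at 0.

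At E17.5 the 1 basal member higher became 6 without a limit on mt- UMIs, 2 under 5%, 0 with gates per 10000 UMIs and 0 without collagen-high cells, and the suprabasal counts became 0 higher and 1 lower under 5%. The shares of all genes under these settings are not given here, so these counts have no background and are not read as results about the members. The collagen-high and shared-barcode alternatives were chosen after seeing the data. The limit on mt- UMIs moved the mt-Nd sums: without it the basal difference of MOF cKO over both stages was 1316 CPM against -79.6, and basal minus fibroblast and suprabasal minus fibroblast were 4957 and 3151 against 2901 and 1202, with 1426 for the former under 5%. The ratio differences without it were 0.938 against 0.557 (MOF cKO, basal), 0.994 against 0.607 (basal minus fibroblast) and 0.505 against 0.187 (suprabasal minus fibroblast), with 0.347 for basal minus fibroblast under 5%, and the suprabasal MOF cKO ratio difference was -0.234 as a mean over cells against 0.0292. With 2 libraries per group and 21 and 22 basal cells in the E16.5 MOF cKO libraries, the E16.5 epithelial values rest on few cells.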
